A study of Mus musculus with 24 samples.

Results

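The cytosolic ribosomal protein genes encode the proteins of the ribosome outside mitochondria. All non-control probes of the mRNA arrays whose printed gene name was an Rpl, Rplp, Rps or Rpsa name of the cytosolic ribosome were taken, and the S6 kinases were not. The rule used names alone and no measured value. It found 182 probesets, under 82 gene names, of 55681 probesets in all. Of these, 116 probesets under 51 names belonged to the large (60S) subunit and 66 under 31 names to the small (40S) subunit. Fau and Rpl36al, which also encode ribosomal proteins, lay outside the rule.

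Hippocampal RNA of male C57BL/6 mouse pups killed on P9 was measured on 15 1-colour arrays, 5 per group, each with both hippocampi of 1 pup. Control pups (Con) were untreated and minimally handled. From P5, pups of the MS2 and MS5 groups were injected with morphine at 2 or 5 mg/kg and shared 1 stress protocol, in which they were kept apart from the dam and made apneic with nitrogen. A difference from controls therefore spans morphine and stress, which cannot be told apart here, while MS5 against MS2 compares doses within the stress. In bulk tissue, fewer cells of a type and less RNA per cell also cannot be told apart.

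A ribosome joins 1 copy of nearly every one of these proteins to the ribosomal RNAs, so the genes are generally expressed in step and at high levels in every cell. Proteins of the small subunit help to place the messenger RNA and read its start codon, and proteins of the large subunit surround the centre that joins amino acids and the tunnel through which the chain leaves. Most of these messenger RNAs begin with a 5′ terminal oligopyrimidine (TOP) tract, a C followed by a run of C and T, through which mTOR signalling and Larp1 regulate their translation more than their amount. An array measures the amount of messenger RNA and not its translation. In the brain, ribosomal protein mRNAs are also found in dendrites and axons.

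The TOP tract is the sequence feature these mRNAs are known for, so promoters that carry it are shown for 5 members whose values are given later. They come from RefSeq on GRCm38.p6 and run from 40 bases before to 20 bases from the annotated start, on the gene's own strand. The lines are Rps6 at chr4:86857348-86857407 (minus strand), Rps27 at chr3:90213629-90213688 (minus), Rps18 at chr17:33955646-33955705 (minus), Rplp2 at chr7:141447611-141447670 (plus) and Rpl14 at chr9:120571477-120571536 (plus). Capitals mark the C at the start and the unbroken run of C and T after it.
Rps6: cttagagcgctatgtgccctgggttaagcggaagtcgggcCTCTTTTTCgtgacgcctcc
Rps27: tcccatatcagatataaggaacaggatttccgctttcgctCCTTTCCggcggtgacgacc
Rps18: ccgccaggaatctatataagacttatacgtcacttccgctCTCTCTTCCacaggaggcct
Rplp2: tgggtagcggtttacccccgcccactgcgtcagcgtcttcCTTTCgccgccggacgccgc
Rpl14: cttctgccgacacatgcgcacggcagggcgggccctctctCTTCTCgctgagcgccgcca

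Promoters were listed for 62 of the member symbols, 74 in all. A C followed by at least 4 bases that were each C or T began exactly at the annotated start in 13 of the 74 (17.6%), against 2.51% of the 32851 promoters of all genes. Such a run began between 20 bases before and 20 bases after the start in 74.3% of member promoters and 49.4% of all promoters. On either strand of the listed stretch, the letters CCGGAAG were in 36.5% of member and 8.86% of all promoters, AAGATGGC in 10.8% and 2.75%, GGGCGG in 59.5% and 35.7%, and TATAAA in 9.46% and 13.6%. None of the 4 sets of letters contains another. These are counts of letters and not of bound factors.

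The median spot signal was 58.2 on the array of MS2 replicate 5 and 121 to 154 on the other arrays. Several arrays went against their labels or stood apart. MS5 replicate 9 carried Xist, the RNA of the silenced X chromosome in females, at 11.34 (log2) although the pups were labelled male, and the other arrays held it near background. On MS2 replicate 4 the mean of 10 markers of hippocampal neurons was 11.12, against 12.65 to 13.05 on the other 14 arrays, and that of 10 markers of hypothalamus and thalamus was 10.36, against 7.83 to 9.24. On all other arrays the hippocampal markers were well expressed. The mean of 14 choroid plexus markers was 8.50 on MS5 replicate 14 and 9.40 on MS5 replicate 9, lower than on every other array, and 12 of the 14 had an unadjusted p under 0.05 in MS5 against Con, all lower. The hypothalamus and thalamus mean was 9.24, 9.03 and 9.10 on MS5 replicates 8, 12 and 14, and 8.03 and 8.29 on MS5 replicates 9 and 13. In Con it was 7.83 to 8.35. The part of these differences in the results below was not tested. Counts are given with and without MS2 replicates 4 and 5 and MS5 replicate 9, called below the 3 arrays that stood apart. MS5 replicates 8, 12 and 14 stay in those counts, so they do not remove every array of unusual tissue content.

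Ribosomal protein mRNAs differed little between the groups. The differences from controls were between -0.13 and 0.13 (log2) in MS2 and between -0.17 and 0.16 in MS5, and those between the doses were between -0.11 and 0.11. By limma, with Benjamini-Hochberg adjustment over all 55681 probesets, 0 of 182 passed an adjusted p of 0.05 in any comparison, and the smallest adjusted p of a member was 0.970 in MS2 and 1.00 in both comparisons of MS5. None passed the study's threshold of 1.5-fold with an unadjusted p under 0.05, which 0.0233% of all probesets passed in MS2 against Con, 0.228% in MS5 against Con and 0.129% in MS5 against MS2. All 182 members had a 95% interval of the difference within 1.5-fold on either side, where 95.2%, 95.3% and 96.1% of all probesets did. The bound farthest from 0 was 0.40 (log2), a factor of 1.32, in MS2, 0.37 or 1.29-fold in MS5, and 0.38 or 1.30-fold between the doses. A change of 1.5-fold in any member thus lay outside its interval under this normalization. With the 3 arrays that stood apart left out, all 182 intervals were again within 1.5-fold in each comparison. Without the normalization between arrays by quantiles, from the scanner's processed signal, 179 were in each comparison. Under median centring in place of quantile normalization the median MS2 difference was -0.14 instead of -0.043, and the interval count is not given here.

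**Figure D1:**
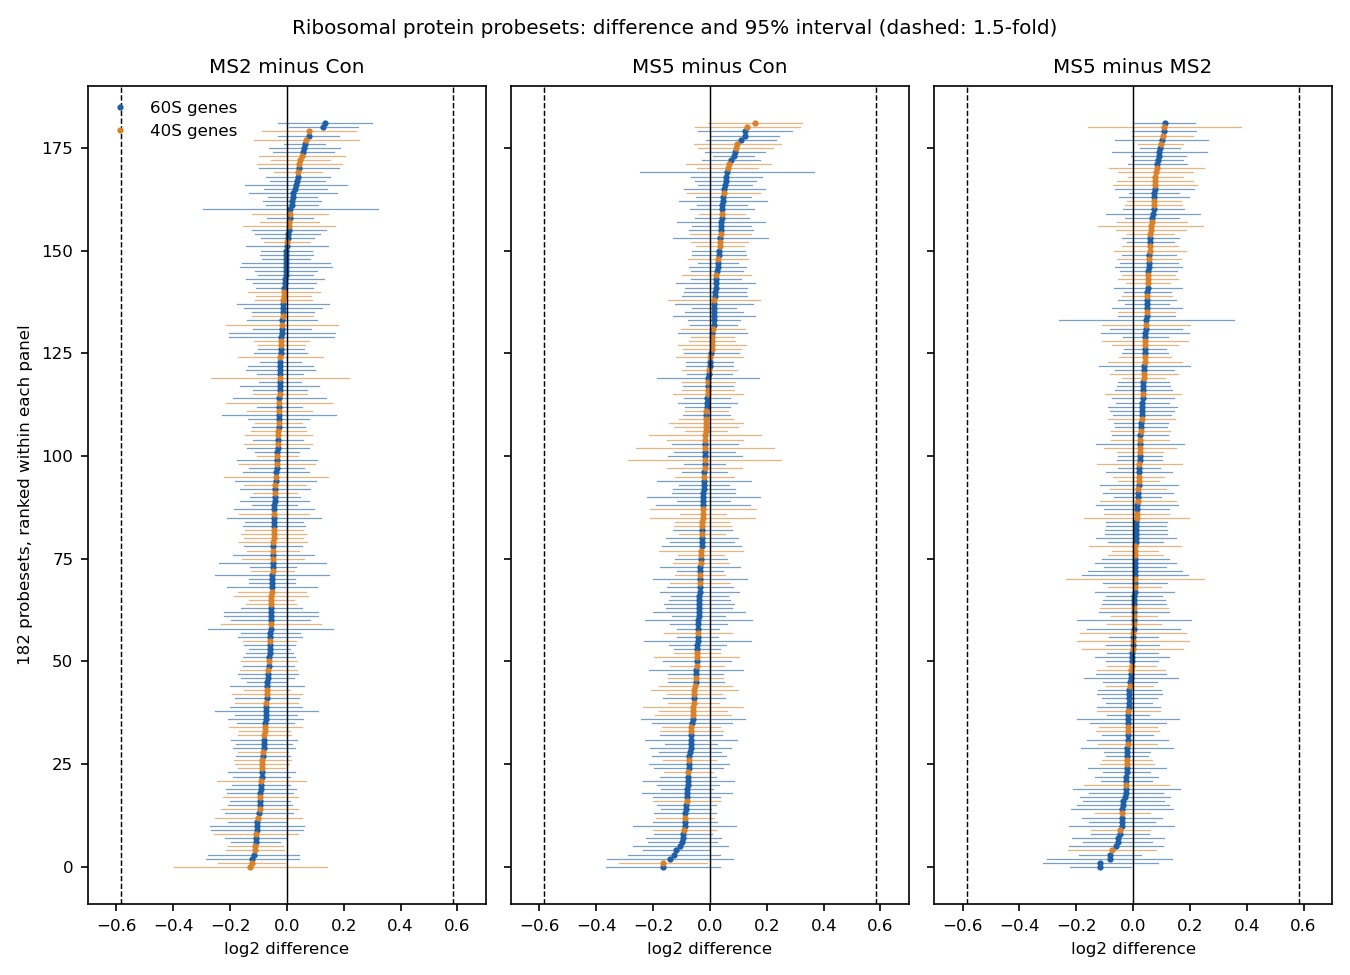
Log2 difference of each of the 182 ribosomal protein probesets (point) with its 95% interval from limma (line), ranked within each comparison, with 60S genes in blue and 40S genes in orange. Every interval lies between the dashed lines at 1.5-fold (0.58 on the log2 scale), and the points lie mostly left of 0 in both comparisons with Con.

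The narrow intervals went with a small spread. The median SD within groups was 0.078 (log2) over the members, against 0.13 over the 36283 probesets well above background on all 15 arrays. Among bright probesets the gap was smaller: the 1550 probesets at least as bright as the upper 3 in 4 members had a median SD of 0.090, and the 136 members among them 0.073. Of the members, 178 were well above background on all arrays and 0 spots were saturated. The exceptions included both probesets of Rpl10l, well above background on 1 and 0 arrays, and Rpl39l, on 11 arrays.

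Within this narrow range, more members were lower than higher in the treated groups. In MS2 against Con 153 of 182 probesets were lower (84.1%, against 51.1% of all probesets) and 29 higher, with a median difference of -0.043 (log2) where that of all probesets was -0.0017. In MS5 against Con 125 were lower (68.7%, against 49.8%) and 57 higher, with a median of -0.023 against 0.00033. In MS5 against MS2 56 were lower (30.8%, against 49.3%) and 126 higher, with a median of 0.017 against 0.0011. The members vary together from array to array, so these counts are not counts of independent genes, and no test of the list was made.

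The split depended on the scaling. When the signal that the scanner software had processed was divided by each array's 75th percentile, 119 members were lower in MS2 and 124 in MS5. With median centring in place of quantile normalization, 174 and 151 were lower. Between the doses the direction itself turned: 108 of 182 were lower in MS5 than in MS2 from the processed signal, and 9 with median centring. In MS5 against Con the count differed between the slides, each with few arrays. Slide 1 held MS5 replicates 8 and 13 and Con replicates 15, 17 and 18. There 80 of 182 were lower, with a median of 0.0074. Within slide 2 it was 133, with a median of -0.051. With the slide as a block in the fit of all arrays, 119 were lower, with a median of -0.0265. For MS2 the within-slide counts were 125 and 147. Without the 3 arrays that stood apart, 134 were lower in MS2, 124 in MS5 and 76 between the doses. Shares of all probesets lower are drawn as black bars below for the scalings and slides, and are not given otherwise. The moves between settings are thus not read as particular to the members.

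**Figure D2:**
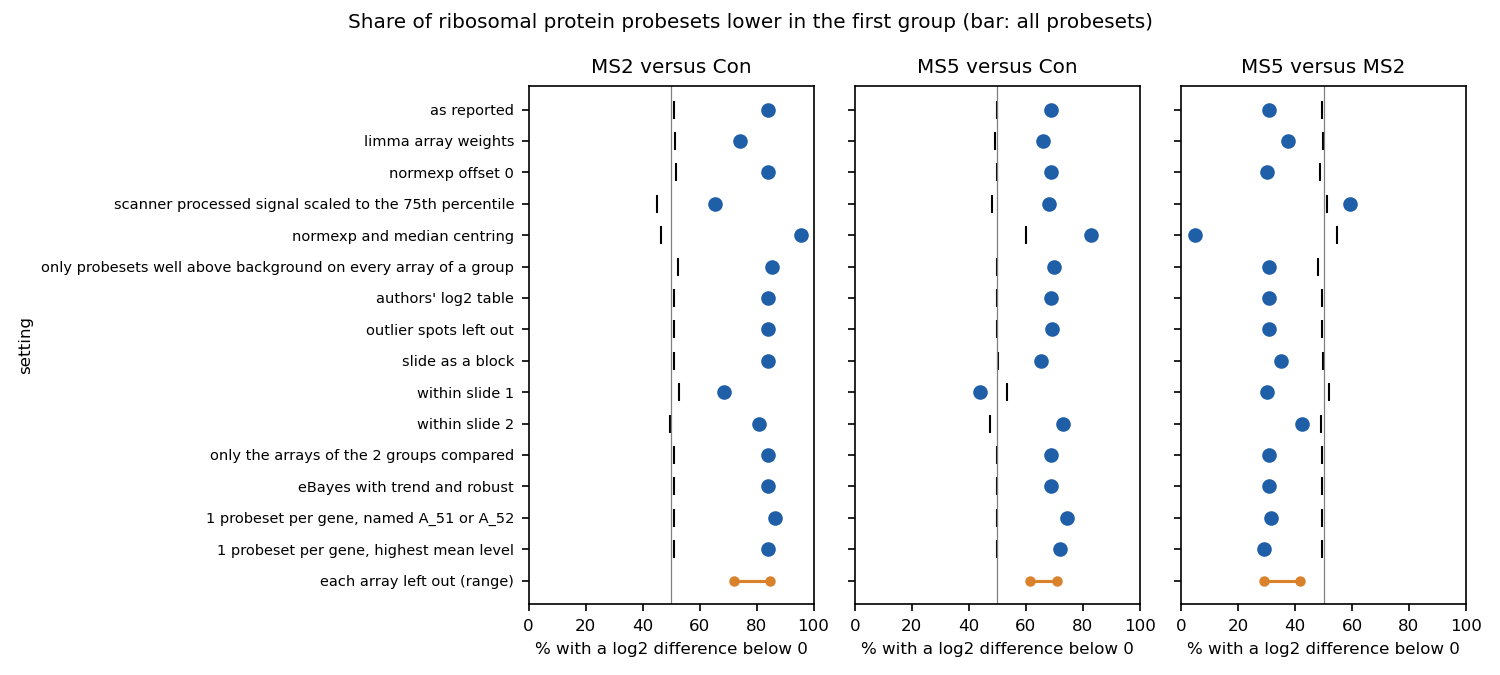
Percentage of member probesets with a log2 difference below 0 under each way of processing (blue points), with the same percentage over all probesets (black bars) and the range when each array was left out in turn (orange). In MS2 versus Con the members lie right of the black bars in every row, in MS5 versus Con they cross it within slide 1, and in MS5 versus MS2 the processed signal puts them right of 50% at 108 of 182.

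The same shift, seen array by array, was no larger than the spread among controls. After subtraction of each probeset's control mean, the median over the 182 members was -0.035, 0.0051, -0.041, 0.037 and 0.033 (log2) on Con replicates 15 to 19. On MS2 replicates 1, 3, 4, 5 and 7 it was -0.038, -0.033, -0.056, -0.035 and -0.044. On MS5 replicates 8, 9, 12, 13 and 14 it was -0.021, -0.0055, -0.037, 0.0016 and -0.043. The MS2 arrays lay together at the level of the lower control arrays, 15 and 17, and overlapped with them. The MS5 arrays spread from -0.043 to 0.0016, over the lower part of the control range. All MS2 and MS5 arrays lay below Con replicates 16, 18 and 19. Controls 18 and 19 were the high arrays of the series for these genes: without Con replicate 18 the MS2 median was -0.025 and the MS5 median -0.013, and without Con replicate 19 they were -0.031 and -0.011. Without Con replicates 15 and 17 in turn the MS5 median was -0.035 and -0.036. Between the doses the median was 0.027 without MS5 replicate 12 and 0.0092 without MS5 replicate 13. The median was -0.039 for 60S and -0.047 for 40S in MS2, and -0.024 and -0.019 in MS5. Without the 3 arrays that stood apart the MS2 medians were -0.026 and -0.046, with 67.2% and 84.8% of the probesets lower. The difference between the subunits was not tested.

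**Figure D3:**
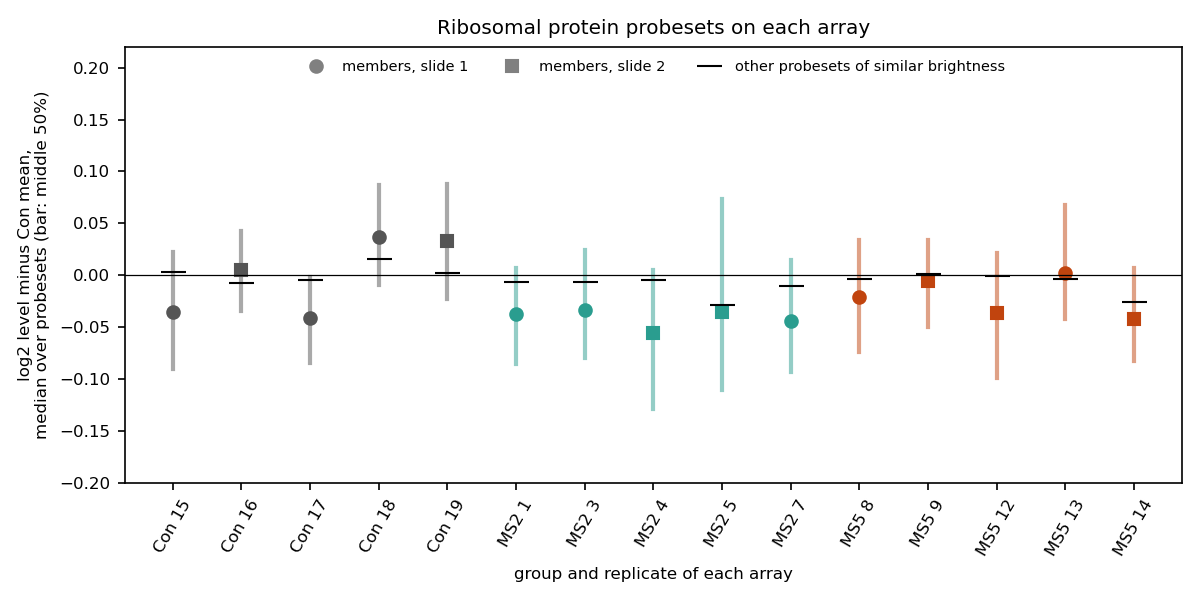
Median over the 182 members of the log2 level minus the control mean on each array (points, slide 1 round and slide 2 square), with the middle 50% of members (bars) and the median of other probesets of similar brightness (black dashes). All 5 MS2 arrays lie between -0.056 and -0.033, within reach of control arrays 15 and 17, while controls 18 and 19 lie highest.

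In MS2 against Con 8 of 182 members had an unadjusted p under 0.05 by limma (4.40%, against 4.17% of all probesets), 1 higher and 7 lower, so their share was near that of all genes. The lower ones were 3.85%, against 2.12% of all probesets, and the higher one 0.549%, against 2.05%. The count moved with single arrays. It was 1 without Con replicate 19, 2 without Con replicate 18 or MS2 replicate 4, 3 without MS2 replicate 3, 14 without Con replicate 15 and 19 without MS2 replicate 5. Without the 3 arrays that stood apart it was 11, from the processed signal 1 and with median centring 0. Shares of all probesets under these settings are not given, here or below. The moves are thus not read as particular to the members. No member's MS2 arrays all lay apart from its Con arrays, which 0.699% of all probesets did (0.309% higher and 0.39% lower). Values below are in order of replicate number, Con 15 to 19, MS2 1, 3, 4, 5 and 7, and MS5 8, 9, 12, 13 and 14.

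Rpl5 binds 5S ribosomal RNA, and with Rpl11 it can hold Mdm2 away from p53. Its level was 14.48, 14.65, 14.52, 14.54 and 14.60 (log2) in Con, 14.44, 14.45, 14.36, 14.52 and 14.48 in MS2, and 14.49, 14.55, 14.57, 14.56 and 14.51 in MS5. The MS2 arrays were the lowest but overlapped with Con replicates 15 and 17. The difference of MS2 from Con was -0.11 ± 0.041 (SE, n = 5 per group, adjusted p = 0.970 by limma), and that of MS5 was -0.022 ± 0.041.

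Rps27 carries a zinc finger and lies on the outer side of the small subunit. The probeset with the lower p had levels of 16.47, 16.47, 16.44, 16.54 and 16.67 in Con and of 16.43, 16.37, 16.46, 16.32 and 16.46 in MS2. Con replicate 19 was the highest array, and the groups overlapped. The difference was -0.11 ± 0.046 (adjusted p = 0.970 by limma). All 4 Rps27 probesets were lower in MS2, by differences of -0.054 to -0.11. Some of the 4 share at least 30 bases in a row with each other, so they are not separate measurements.

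Rps28, a small protein near the messenger RNA exit, was at 16.99, 17.18, 17.14, 17.18 and 17.26 in Con and at 17.10, 17.05, 16.94, 17.05 and 16.99 in MS2, a difference of -0.12 ± 0.055 (adjusted p = 0.970 by limma). Con replicate 15 lay among the MS2 arrays. Rpl14, a protein of the outer face of the large subunit, was at 15.97, 16.01, 16.03, 16.10 and 16.14 in Con and at 15.90, 15.89, 15.86, 16.09 and 15.96 in MS2, a difference of -0.11 ± 0.050 (adjusted p = 0.970 by limma). Rpl14 was high on the dim array, MS2 replicate 5, and low on the other 4. Its other 2 probesets were also lower in MS2, by differences of -0.11 ± 0.077 and -0.12 ± 0.075. At least 30 bases in a row of the first probe are shared with 1 of these, so they are not separate measurements.

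Rpl26 lies near the exit of the tunnel, and 1 of its 3 probesets was the only member probeset with a higher level in MS2 at this p. It was at 13.82, 14.01, 13.89, 13.70 and 13.83 in Con, at 13.93, 13.91, 14.09, 13.94 and 14.04 in MS2, and at 14.04, 14.01, 13.87, 14.03 and 13.94 in MS5. The difference was 0.13 ± 0.057 in MS2 (adjusted p = 0.970 by limma) and 0.12 ± 0.057 in MS5 (adjusted p = 1.00 by limma). Con replicate 18 was the lowest array and Con replicate 16 lay among the treated ones. With median centring in place of quantile normalization the MS2 difference was 0.00044. The other 2 Rpl26 probesets had MS2 differences of 0.0022 ± 0.044 and 0.036 ± 0.045. Rps10 and Rpl37 were the other members with a lower level in MS2 and were named after their values were seen, with differences of -0.089 ± 0.038 and -0.11 ± 0.047.

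**Figure D4:**
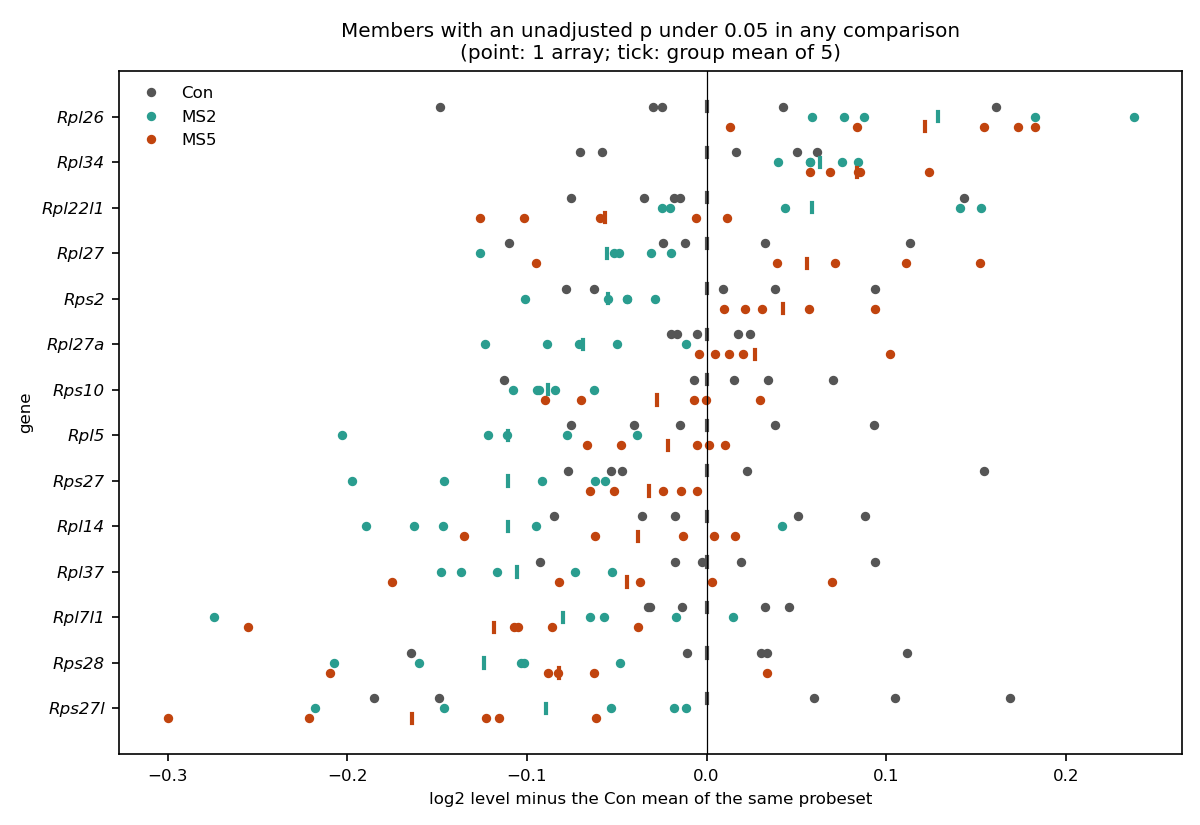
Log2 level on each array minus the Con mean of the same probeset, for 14 members with an unadjusted p under 0.05 in a comparison (points, 1 array each; ticks, group means of 5). The groups overlap in most rows, and the exceptions are Rpl7l1, where MS5 lies below Con, and Rpl27a and Rps2, where MS5 lies above MS2.

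In MS5 against Con 3 of 182 members had an unadjusted p under 0.05 (1.65%, against 3.91% of all probesets), 1 higher (0.549%, against 1.47%) and 2 lower (1.1%, against 2.44%). The count was 1 without Con replicate 18 or 19 or MS5 replicate 14, 5 without Con replicate 16, MS2 replicate 4 or 5 or MS5 replicate 13, 9 without Con replicate 15 or 17, and 8 without the 3 arrays that stood apart. For 1 member all MS5 arrays lay below its Con arrays (0.549%, against 0.526% of all probesets lower, 0.305% higher and 0.832% either way). Rpl34, a protein of the large subunit, was the higher one. Its level was 16.48, 16.59, 16.47, 16.60 and 16.55 in Con and 16.62, 16.60, 16.62, 16.66 and 16.61 in MS5, a difference of 0.084 ± 0.034 (adjusted p = 1.00 by limma). The MS5 arrays were high and close together, and Con replicate 18 reached the lowest of them. In MS2 the difference was 0.063 ± 0.034. The other Rpl34 probeset differed by 0.027 ± 0.047 in MS5. The probe of the first shares at least 30 bases with one for Gm6404, so the gene and that copy may not be told apart.

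The lower ones were Rps27l and Rpl7l1. Rps27l is a near copy of Rps27 and a known p53 target. Its level was 13.73, 14.08, 13.76, 13.97 and 14.02 in Con and 13.79, 13.69, 13.85, 13.80 and 13.61 in MS5, a difference of -0.16 ± 0.073 (adjusted p = 1.00 by limma). Con replicates 15 and 17 lay among the MS5 arrays. Rpl7l1 is a copy of Rpl7 that acts in ribosome assembly. It was at 8.79, 8.81, 8.86, 8.87 and 8.79 in Con, at 8.81, 8.77, 8.55, 8.76 and 8.84 in MS2 and at 8.74, 8.72, 8.57, 8.79 and 8.72 in MS5. Its MS5 arrays were all below its Con arrays, by a difference of -0.12 ± 0.054 (adjusted p = 1.00 by limma), although the highest of them and the lowest of Con were both 8.79 at this rounding.

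Between the doses, which share the stress protocol, 5 of 182 members had an unadjusted p under 0.05 (2.75%, against 3.97% of all probesets), 4 higher (2.2%, against 1.72%) and 1 lower in MS5 (0.549%, against 2.26%). The count was 2 without MS2 replicate 3 or MS5 replicate 13, 3 without Con replicate 17 or 19 or MS5 replicate 9 or 14, 8 without MS5 replicate 12, and again 5 without the 3 arrays that stood apart. In 3 probesets, 1 each of Rpl27a, Rps2 and Rps27, all MS5 arrays lay above all MS2 arrays. This was 1.65% of members, against 0.241% of all probesets higher, 0.384% lower and 0.625% either way. Rpl27a, a protein of the large subunit, was at 15.44, 15.49, 15.51, 15.48 and 15.55 in MS2 and at 15.56, 15.57, 15.58, 15.67 and 15.58 in MS5, a difference of 0.096 ± 0.033 (adjusted p = 1.00 by limma). Con lay between 15.54 and 15.59, at the level of MS5 without its high replicate 13. The other 2 Rpl27a probesets differed by 0.054 ± 0.047 and 0.075 ± 0.041 between the doses. Rps2, which lines the messenger RNA entry, was at 16.34, 16.27, 16.33, 16.32 and 16.33 in MS2 and at 16.39, 16.43, 16.38, 16.47 and 16.40 in MS5, a difference of 0.097 ± 0.037 (adjusted p = 1.00 by limma). The Con arrays of Rps2, from 16.29 to 16.47, covered both groups. Its other probeset differed by 0.056 ± 0.053.

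The Rps27 probeset that lay apart was at 16.49, 16.46, 16.47, 16.42 and 16.49 in MS2 and at 16.50, 16.53, 16.53, 16.51 and 16.50 in MS5, a difference of 0.050 ± 0.041. Rpl27 was at 14.80, 14.81, 14.82, 14.73 and 14.84 in MS2 and at 14.93, 14.97, 14.76, 15.01 and 14.89 in MS5, a difference of 0.11 ± 0.050 (adjusted p = 1.00 by limma), with MS5 replicate 12 among the MS2 arrays. The other probeset of Rpl27 had the opposite sign, at -0.083 ± 0.051. Rpl5 differed by 0.089 ± 0.041 (adjusted p = 1.00 by limma), from the levels given above. Rpl22l1, a copy of Rpl22, was the lower one. It was at 15.02, 15.02, 15.19, 15.18 and 15.09 in MS2 and at 15.05, 14.92, 15.04, 14.98 and 14.94 in MS5, a difference of -0.11 ± 0.051 (adjusted p = 1.00 by limma). MS2 replicates 4 and 5 were the high ones, and the groups overlapped.

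The probes of 4 of these members, each with an open reading frame, are shown, since these 60 bases are what each value measures. By the files, on mm9, Rpl5 is at chr5:108333834-108333892 (plus strand), Rpl27a at chr7:116663505-116664038 (plus, across a splice junction) and Rps2 at chr17:24857583-24857642 (plus). The probe named Rps27 is at chr9:114891672-114891731 (minus), although RefSeq places the gene Rps27 on chromosome 3. It is the Rps27 probeset described for MS2 against Con, and not the one that lay apart between the doses.
Rpl5: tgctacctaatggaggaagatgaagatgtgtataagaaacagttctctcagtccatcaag
Rpl27a: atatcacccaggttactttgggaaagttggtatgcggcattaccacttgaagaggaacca
Rps2: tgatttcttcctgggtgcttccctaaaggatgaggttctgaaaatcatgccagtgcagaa
Rps27: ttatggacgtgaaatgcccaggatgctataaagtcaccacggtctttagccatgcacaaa

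The placement on another chromosome is not rare in this family, which has many processed copies in the genome. In the files 12 member probesets under 6 names (Rps27, Rps29, Rpl13, Rps4x, Rpl31 and Rpl36) are placed on a chromosome other than the one RefSeq gives for the gene, and 1 of Rps3 has no place. At least 30 bases in a row are shared with another probeset of the same name by 25 members, and with a probeset of another name by 47. Signals of such copies may not be told apart. Without the 12 misplaced probesets, 142 of 170 were lower in MS2 and 115 in MS5.

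Members with a known role beyond the bulk of the ribosome were fixed by name. The P stalk, which draws in elongation factors, is made of Rplp0, Rplp1 and Rplp2. Rplp0 differed from Con by -0.098 ± 0.056 in MS2 and -0.047 ± 0.056 in MS5, Rplp1 by -0.058 ± 0.048 and -0.0092 ± 0.048, and Rplp2 by -0.043 ± 0.041 and -0.0066 ± 0.041. All 3 had values below 0 in both groups, and none passed an unadjusted p of 0.05. Rplp0 was at 17.82, 17.84, 17.75, 18.03 and 18.02 in Con, with replicates 18 and 19 high as for the whole family, and at 17.72, 17.72, 17.78, 17.89 and 17.85 in MS2.

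Rpl11, the partner of Rpl5 at the 5S RNA, differed from Con by -0.081 ± 0.046 in MS2 and -0.077 ± 0.046 in MS5. Its arrays spanned 17.04 to 17.26 in Con, 16.96 to 17.14 in MS2 and 17.00 to 17.07 in MS5, so it overlapped in all groups. Rps6, the substrate of the S6 kinases below mTOR, was between 16.38 and 16.48 in Con, between 16.21 and 16.47 in MS2 and between 16.31 and 16.40 in MS5, with differences of -0.063 ± 0.045 and -0.056 ± 0.045. Rps19, the gene most often mutated in Diamond-Blackfan anemia, differed by -0.015 ± 0.050 and 0.038 ± 0.050. Rpl13a, a component of the GAIT complex that represses translation after interferon, differed by -0.050 ± 0.038 and -0.0091 ± 0.038.

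Rps27a is made as a fusion with ubiquitin, and its difference was the nearest to 0 of these genes in MS2, at -8.6e-05 ± 0.038, with 0.0076 ± 0.038 in MS5. Rps4x, the X-linked small subunit gene, differed by -0.078 ± 0.042 and -0.057 ± 0.042. Its level on MS5 replicate 9, the array with Xist, was 15.65, inside the 15.61 to 15.65 of the other MS5 arrays. Rpsa, which also acts as a laminin receptor, is described by a dim probeset that ranged from 8.28 to 8.75 among controls, and differed by -0.026 ± 0.087 and -0.025 ± 0.087. Its other probesets were much brighter, at 14.28 or above on every control array. Over all 4 Rpsa probesets the MS5 differences ranged from -0.025 to 0.048, so their sign was not shared. None of these genes had an unadjusted p under 0.05 against Con.

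The paralog copies were measured beside their parents, and levels of different probes cannot be set against each other. In MS5 against Con the copy Rps27l differed by -0.16 ± 0.073 and the parent Rps27 by -0.034 ± 0.041. Rpl7l1 differed by -0.12 ± 0.054 and Rpl7 by -0.084 ± 0.042. All 4 probesets of Rpl7 had values below 0, from -0.081 to -0.13, and some of these share at least 30 bases in a row. Rpl22l1 differed by -0.056 ± 0.051 and Rpl22 by -0.081 ± 0.074. Rpl3l, known for heart and skeletal muscle, was above background on all 15 arrays at 6.55 to 6.85 and differed by 0.089 ± 0.050, with -0.068 ± 0.067 for Rpl3. The testis genes Rpl39l and Rpl10l were near background: Rpl39l ranged from 5.97 to 6.69 over all arrays, and the Rpl10l probeset that was well above background on 0 arrays from 5.92 to 6.09. In neither did the groups lie apart. The difference between a copy and its parent was not tested.

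Of the 56 names with several probesets, some gave differences that varied as much between probesets as between groups. In MS5 against Con the probesets of Rpl39 ranged from -0.17 to 0.043, those of Rpl13 from -0.14 to 0.050 and those of Rps18 from -0.073 to 0.097. No single probeset of these 3 genes had an unadjusted p under 0.05. Rps18, which lies in the head of the small subunit, shows how wide this is beside the shifts of the family. The probe near the 5′ end of its transcript lies at chr17:34092060-34092119 on mm9 (minus strand) and the other, across a splice junction, at chr17:34089041-34089202.
Rps18 near the 5′ end: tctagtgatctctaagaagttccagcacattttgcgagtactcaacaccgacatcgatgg
Rps18 further 3′: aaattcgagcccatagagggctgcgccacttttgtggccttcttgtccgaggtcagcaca
With the first, Rps18 was at 14.37, 14.46, 14.41, 14.31 and 14.19 in Con and at 14.55, 14.37, 14.60, 14.35 and 14.36 in MS5, a difference of 0.097 ± 0.071. With the second it was at 15.41, 15.37, 15.34, 15.55 and 15.44 and at 15.34, 15.32, 15.38, 15.39 and 15.32, a difference of -0.073 ± 0.044. Con replicate 18 was lower than most with the first probe and the highest with the second, so the order of the arrays was not the same with both. A gene with 1 probeset, as 26 of the 82 names have, offers no such comparison.

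**Figure D5:**
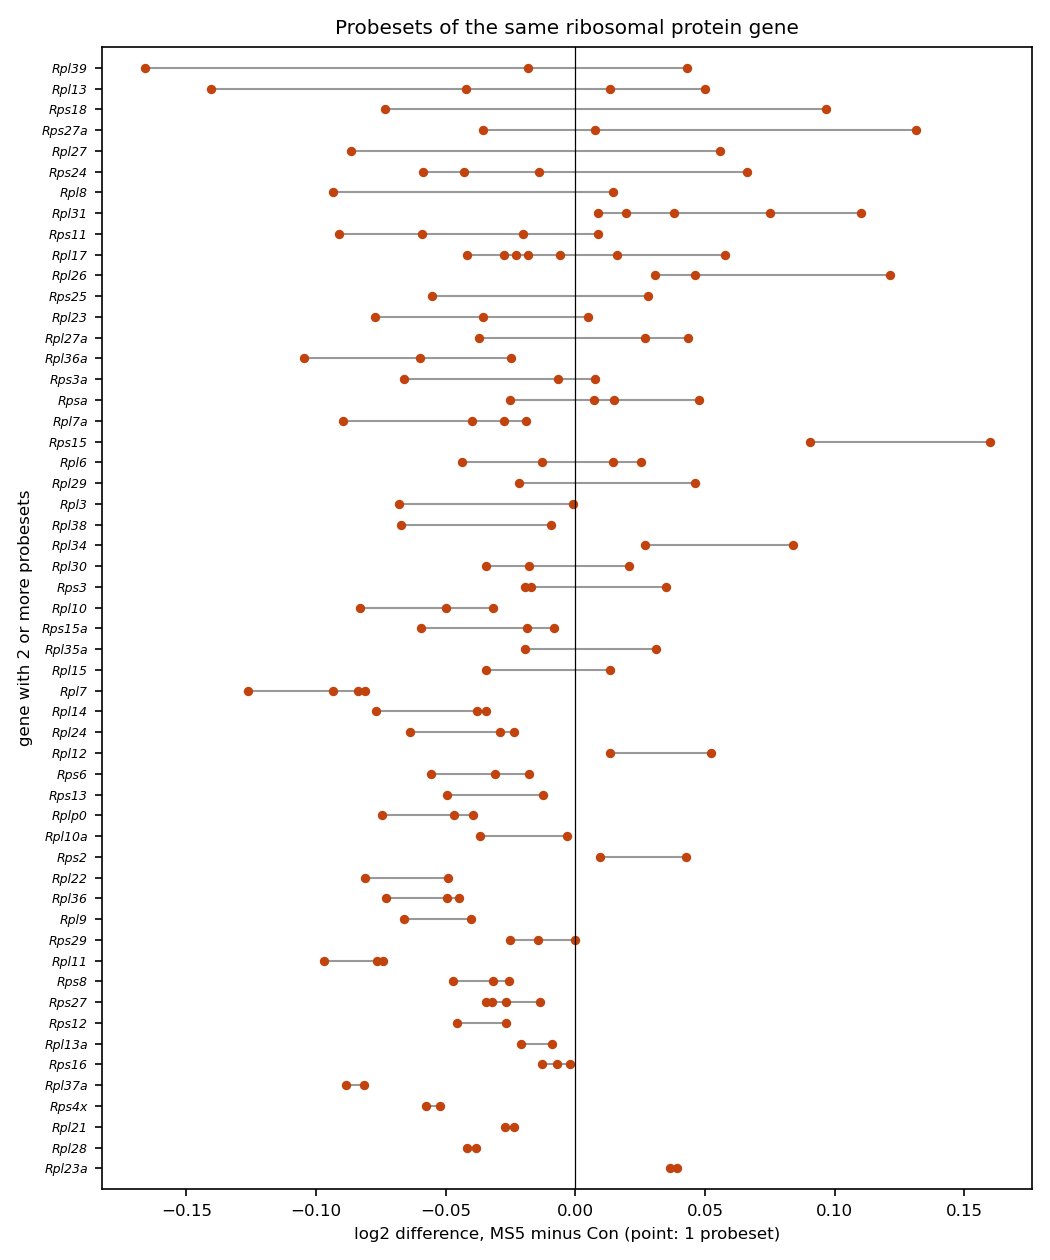
Log2 difference between MS5 and Con for each probeset (point) of the genes with at least 2 probesets well above background on all arrays, joined by a line within a gene and sorted by the width of the line. Rpl39, Rpl13 and Rps18 lie at the top, from -0.17 to 0.043, -0.14 to 0.050 and -0.073 to 0.097.

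Set apart by the strict TOP start, 27 probesets of 13 genes had a median difference of -0.070 in MS2, and 26 of the 27 were lower. The other probesets with a listed promoter, of 49 genes, had a median of -0.031, and 80.4% of them were lower. In MS5 the medians were -0.031 and -0.018, with 88.9% and 60.7% lower. Within slide 1 the MS5 medians were -0.00050 and 0.011, with 55.6% and 42.1% lower. Without the 3 arrays that stood apart the MS2 medians were -0.040 and -0.037, nearer to each other than with all arrays. With the processed signal they were -0.043 and -0.013, and with median centring -0.17 and -0.13. This is a description with no test, and the annotated start of a gene need not be the start used in hippocampus.

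Other genes of the translation machinery were counted from lists, 1 probeset per gene. Of all probesets, 51.1% were lower in MS2 and 49.8% in MS5, and 4.17% and 3.91% had an unadjusted p under 0.05. Of 19 other genes known for TOP mRNAs, 15 were lower in MS2 and 15 in MS5, with medians of -0.054 and -0.040. In each group 1 of them had an unadjusted p under 0.05: Tpt1, a growth-related TOP mRNA, at -0.12 ± 0.045 in MS2, and Naca, a subunit of the complex that binds new chains, at -0.13 ± 0.035 in MS5. Eef1a1, the main elongation factor, differed by -0.077 ± 0.037 and -0.040 ± 0.037. Fau, whose product includes a small subunit protein, differed by -0.051 ± 0.054 and -0.048 ± 0.054.

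Of 30 ribosome biogenesis genes, 23 were lower in MS2 and 20 in MS5, with medians of -0.034 and -0.025. At an unadjusted p under 0.05, Emg1, an rRNA methyltransferase, was at -0.14 ± 0.066 in MS2 (-0.094 without MS2 replicate 4) and Dimt1, an rRNA dimethylase, at 0.14 ± 0.044 in MS5. Of 76 mitochondrial ribosomal protein genes, which build a separate ribosome, 41 were lower in MS2 and 45 in MS5, with medians of -0.0057 and -0.0073. Of 58 genes named as initiation factors, 39 and 43 were lower, with medians of -0.025 and -0.040. In both groups the mitochondrial list lay nearer to 0 than the cytosolic members, and this difference was not tested.

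Of 16 genes that control TOP translation, 9 were lower in MS2 and 10 in MS5. Larp1, which binds the TOP tract, differed by 0.035 ± 0.071 in MS2 and 0.057 ± 0.071 in MS5, and Mtor by 0.057 ± 0.066 and 0.038 ± 0.066. Without MS2 replicate 4 the MS2 differences turned to -0.028 and -0.0097. The product of Eif4ebp1 inhibits the cap-binding protein Eif4e and is phosphorylated by mTOR. Eif4ebp1 was at -0.29 ± 0.12 in MS2 (adjusted p = 0.970 by limma) and -0.21 ± 0.12 in MS5. Without MS2 replicate 4 the MS2 value was -0.18, no longer at an unadjusted p under 0.05. Rptor, the subunit of mTOR complex 1 that binds its substrates, was at -0.079 ± 0.036 in MS5 (adjusted p = 1.00 by limma). Of 10 genes of p53 and ribosomal stress, 5 and 4 were lower and 0 had an unadjusted p under 0.05. Trp53 itself differed by -0.079 ± 0.094 and -0.16 ± 0.094, and Cdkn1a, its classical target, by 0.41 ± 0.26 and 0.29 ± 0.26. The MS2 values of both rested in part on MS2 replicate 4, without which they were -0.032 and 0.088. In none of these lists did a gene pass the adjusted p.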

How the data were processed

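Hippocampal RNA of 15 pups was hybridised to 1-colour Agilent arrays. The deposited scanner files hold spot intensity values and flags from Agilent Feature Extraction 10.7.1.1, per the file headers, with coordinates on mm9. The authors also deposited a table of log2 values after background correction (normexp, offset 50) and quantile normalization. These log2 values were rebuilt from the mean and background intensity, with spots of a probe averaged. Control spots were part of the background correction and the quantile normalization and were left out after both. The rebuilt member values equalled the authors' table within 5e-09, except Rpl23, which is printed as 10 spots (largest difference 0.32). Other flags in the deposited files gave detection and saturation.

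Groups were fitted together with limma 3.58.1 (R 4.3.3) over 55681 probesets, with Benjamini-Hochberg adjustment. Errors after ± in differences are limma's SE with n = 5 per group. A spot well above background is one the scanner software called so. The number of arrays limits the precision. Each array is 1 pup. Treated and control pups shared litters, and which pup came from which litter is not given in the sources used here. A gene with several probesets is described by the one that had an unadjusted p under 0.05 or did not overlap, where a comparison named it so, and otherwise by the one named A_51 or A_52 or by the brightest, unless stated. Genes named are, per comparison, the 5 highest and 5 lowest with an unadjusted p under 0.05, the 3 largest that did not overlap, paralogs with their parents, members with a special role, and the 3 genes whose probesets differed most. Members and lists were chosen with earlier results of these data known. The scripts were tested on simulated data. The miRNA arrays were not used here, and single values of some members are not reported here.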

Additional observations from a re-analysis of the deposited data

Results flagged for a closer look

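In 7 of 123 groups of 5 arrays, 1 array stood apart from the other 4 by more than Dixon's critical value for 5 samples, which chance gives in about 1 of 20 groups. Rpl13a was at 16.17 (log2) on MS5 replicate 9 against 16.22 to 16.24 on the other MS5 arrays, and Rpl27a at 15.67 on MS5 replicate 13 against 15.56 to 15.58. In MS2, Rpl3 was at 16.71 on replicate 5, the dim array, against 16.34 to 16.42. On MS2 replicate 4, the array with few hippocampal neuron markers, 1 Rpl39 probeset was at 15.52 against 15.68 to 15.72 and Rpl7l1 at 8.55 against 8.76 to 8.84. On Con replicate 18, Rpl22l1 was at 15.18 against 14.97 to 15.03 and another Rpl39 probeset at 8.42 against 8.06 to 8.07. Whether the features of these arrays set these values was not tested.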

How the results depend on the processing

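Over 31 alternatives no member passed the adjusted p. The counts at an unadjusted p under 0.05, 8, 3 and 5 in MS2 against Con, MS5 against Con and MS5 against MS2, were 13 and 6 in the comparisons with Con under array weights, and 0, 1 and 0 with a background offset of 0. They were 1, 1 and 0 from the processed signal, 0 in all 3 with median centring, and 2, 1 and 2 over well detected probesets. With the slide as a block MS5 against Con had 5. Within slide 1 the comparisons with Con had 3 and 7, and within slide 2 MS2 against Con and MS5 against MS2 had 3 each. With only the 2 groups compared the comparisons with Con had 3 and 5, and with a trended robust prior MS5 against MS2 had 3. With 1 probeset per gene MS5 against Con had 3 of 82, by either choice. Without the 3 arrays that stood apart, chosen after seeing the data as was leaving out misplaced probesets, it had 8. Leaving out each array in turn gave 1 to 19, 1 to 9 and 2 to 8. These counts stand without the shares of all probesets under the same settings. Past 1.5-fold there was 1 member in 1 alternative, an Rpl10l probeset well above background on 1 array, at 0.67 with an offset of 0. Members lower in MS5 than in MS2 numbered 108 from the processed signal and 9 with median centring, and 80 were lower in MS5 than Con within slide 1. These numbers too stand without the shares of all probesets. With median centring the median was -0.14 in MS2 against Con and 0.083 in MS5 against MS2. The cause was not tested. Of the 14 named differences with an unadjusted p under 0.05, 0 turned sign. They were chosen by that p in these same arrays, so the kept signs are no support for them. Under 28 alternatives Rpl5 between the doses had such a p by limma in 8, the fewest. Rpl5 in MS2 and Rpl27a between the doses had it in 23, the most. No paired analysis was possible because the mRNA groups share no replicate numbers. Signal over background limited Rpl10l and Rpl39l most.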
